A study of Saccharomyces cerevisiae with 11 samples.

Results

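The peptides described here carry 3 leucine cores whose neighbours were varied. Each is 20 residues long, and after 2 glycines it repeats a unit of 6 residues 3 times, in which the core leucine (L) stands between 1 variable residue before it and 1 after it. Every one of 20 residues was placed on each side, which gives 400 peptides among the 12400 designed entries of the library. The members were chosen by their design set alone, with no measured value, and the flanks were read from the repeat unit. All 400 sequences were distinct, and none was shared with another entry. A member is named below by 3 letters, the residue before the core, the core L and the residue after it.

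The library was carried by Y2H Gold, a strain of Saccharomyces cerevisiae, in medium lacking tryptophan. There were 11 samples in all. The untreated samples were taken at 0, 12 and 24 h, and samples labelled 150 or 200 aureobasidin were taken at 12, 24, 48 and 72 h. The dose is given as the label's number because the labels name conflicting units, and their growth text describes antibiotic for every sample, so the groups were taken from the titles. Each sample was sequenced as 5 barcoded sub-libraries. The submitters describe the barcodes as biological replicates, yet no label states that they were grown separately, so every p-value measures the spread between barcoded sub-libraries, which may be technical. Each group is 1 sample with no replicate beyond its barcodes, and no untreated sample was analysed here beyond 24 h.

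A transcriptional activation domain is a stretch of a transcription factor that recruits the transcription machinery once it is tethered to DNA. Such domains are often rich in acidic residues mixed with bulky hydrophobic ones, and leucine and the aromatic residues tryptophan (W), phenylalanine (F) and tyrosine (Y) are the best known of these. In Y2H Gold, activation of a reporter gene gives resistance to the antifungal aureobasidin A, so cells whose peptide activates can keep dividing and the DNA of that peptide gains reads. Every repeat unit here also holds 1 fixed aspartate between 2 glycines, so the members differ in nothing but the flanks of the leucine.

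The results turn on a few flank pairs, and the repeat unit of each is shown from its first residue to its last, so that the changed residues can be seen beside the core and the fixed GDG. A member is 2 glycines followed by 3 copies of its unit. The first 6 are members with W after the core, followed by a member with F there, a member with no aromatic residue, and the peptides that swap the flanks of 4 of them.
NLW: GDGNLW
ALW: GDGALW
LLW: GDGLLW
QLW: GDGQLW
YLW: GDGYLW
CLW: GDGCLW
CLF: GDGCLF
CLL: GDGCLL
WLN: GDGWLN
WLA: GDGWLA
WLL: GDGWLL
FLC: GDGFLC

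Total counts ran from 683589 to 3392656 per library. Values are given as reads scaled to a library total of 1000000 (CPM), and for a group with no read a floor of 3 counts over its 5 libraries was used, from 0.234 CPM at label 200, 72 h, to 0.618 CPM at label 200, 24 h. Such floors cover counting error only, because amplified reads carried no molecular identifiers. The libraries labelled 200 stood apart in 1 respect: 340 of the 400 members still had a read at 72 h, against 70 at label 150. Entries that begin with a stop codon, 153 in all, held 0.4001% of the reads at 0 h. At 72 h they held 0.00428% at label 200, with 130 of them read, and no read at label 150. The part of this trace in low values at label 200 was not tested.

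As a set, the leucine peptides kept much of their share of the library while a few members took over the set. The set held 2.84 ± 0.27% of the reads at 0 h, 2.73 ± 0.46% in the untreated culture at 24 h, 2.30 ± 0.95% at label 150, 72 h, and 1.74 ± 0.82% at label 200, 72 h (SD, n = 5 barcodes each). Within it, the effective number of members, which counts them as if all were equally abundant, was 79.3 at 0 h, 31.1 untreated at 24 h, 7.60 at label 150, 72 h, and 5.36 at label 200, 72 h. The 4 most abundant members held 14.3% of the set's reads at 0 h. They held 26.2% untreated at 24 h, 63.3% at label 150, 72 h, and 68.3% at label 200, 72 h. At 0 h 392 members had a read, and the 8 with none in any of the 55 libraries were HLS, ILP, KLA, MLW, PLK, RLR, WLI and YLL.

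The residue after the core separated the members most. With W, F or Y there, 60 members held 48.6 ± 3.85% of the set's reads at 0 h, 71.7 ± 4.44% untreated at 24 h, 91.6 ± 4.51% at label 150, 72 h, and 91.9 ± 4.30% at label 200, 72 h. Each step was larger than the SDs of the barcodes, apart from that between the labels, and the first of them was present without the antibiotic. The aromatic residues did not move alike under the antibiotic. Mean summed CPM with W after the core was 6431 at 0 h, and 17200 and 13460 at 72 h of labels 150 and 200. In the same order it was lower at 72 h for F (5659, 3776 and 2636) and for Y (1762, 299.5 and 101.5). At label 150, 72 h, 39 of the 70 members with a read had an aromatic residue after the core and 20 more had one only before it. The remaining 11, which had neither, were ALL, CLI, CLL, DLR, ILC, LLL, MLL, MLM, TLI, VLC and VLI, and they held 1.04% of the set's reads. The share of the 289 members with no aromatic flank had been 28.7% at 0 h and 5.15% untreated at 24 h.

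In the untreated culture at 24 h, tested members with W on either side of the core were the least reduced by their median log2 change, which was 0.61 with W after the core and 0.26 with W before it. The counts come from edgeR's quasi-likelihood test across all library entries with a mean of at least 10 counts, adjusted by Benjamini-Hochberg and called under 0.05. Of the 327 members that reached that mean, 143 fell, beside 26.7% of all entries tested, and none rose, beside 0.0%. The number that fell rested on the settings. It was 31 under TMM scaling and 94 by DESeq2, beside 357 and 1548 of 9000 entries. With a minimum mean of 50 it was 0, beside 0 of 4037 entries. When 1 barcode was left out it was 66 to 112, beside 1085 of 8599 to 1796 of 9073 entries. No member was higher at an unadjusted p under 0.05, and DESeq2 called 7 higher, beside 92 of 9000 entries. The barcode numbers pair the libraries, and with the barcode as a block 27 members rose and 275 fell, beside 9.12% and 74.6% of all entries. The median log2 change was -2.80 over the tested members and -1.87 over all tested entries. A member could reach the mean through its 0 h reads alone, so these counts describe the members and support nothing about the set.

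By flank, only 1 of 18 tested members with W after the core fell without the antibiotic, and none of 18 with W before it did. Of members with an aromatic residue after the core 4 of 57 fell (7.02%), and of those with an aliphatic one (I, L, M or V) 25 of 74 (33.8%). The other classes lay close together, with 25 of 39 basic (64.1%), 17 of 29 acidic (58.6%), 36 of 63 polar (57.1%) and 36 of 65 other residues (A, C, G or P, 55.4%), beside 26.7% of all entries. The same settings move these counts. By fitted log2 change, the 5 largest falls among members lower in every barcode were DLP, DLQ, SLS, CLE and KLD, with 12.9 to 42.2 CPM at 0 h and no read at 24 h in any barcode. Their summed reads were at least 38.9- to 128-fold lower (edgeR's adjusted p = 0.00633 for DLP, lower in 5 of 5 barcodes). Here and in the later lists of largest falls, the order of members with no read left depends on the fit's prior count, and members that kept 1 or 2 reads can show a larger ratio of summed reads. Of the 27 members that rose with the barcode as a block, 11 had W after the core and 9 had W before it. WLW, with W on both sides, counts under both.

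Summed over the 20 members that share a residue, K and R had the largest falls on either side of the core. Members that share a residue are not replicates, so their counts were added into 1 value per library and tested in the same fit in place of the 400 members. Untreated at 24 h, the sums with K, R, H, I and D before the core fell, with log2 changes of -3.99, -2.71, -2.47, -2.09 and -1.82. The sums with K, R, D and T after it fell, with -4.17, -2.84, -2.46 and -2.24, whereas H after the core, also basic, had -0.68 (edgeR's adjusted p = 0.552). None of these calls held under TMM scaling. Leaving out 1 barcode in turn lost the call of D before the core in 5 of 5 cases and of I before it in 4 of 5, and those of T and R after it in 3 and 2 of 5 and of H before it in 1 of 5. These are 5 and 4 of 20 sums, no larger a share than the 25.4% of entries in either table, and 12 and 16 with the barcode as a block, beside 74.1% in either table. With the block, W before the core rose by 0.53, beside 9.13% of entries, and W, F and Y after it rose by 0.70, 0.29 and 0.20, beside 9.17%, each with edgeR's adjusted p below the threshold. The median log2 change of all entries in these tables was -1.82, the value of D before the core.

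At label 150, 72 h, nearly all members were lost and 3 rose. The members that rose were NLW, LLW and ALW, all with W after the core, of 314 tested, beside 1.96% of all entries that rose. The members that fell numbered 285, beside 88.6% of all entries. With the barcode as a block 300 fell, beside 92.8%, and 14 rose, beside 4.49%. The 14 were NLW, LLW, ALW, QLW, SLW, TLW, GLW, DLW, ELW, CLF, NLF, MLF, CLL and WLN, of which 9 had W and 3 had F after the core. At label 200, 72 h, NLW alone rose of 314 tested, beside 1.88%, and 292 fell, beside 91.2%. With the barcode as a block 301 fell there, beside 94.5%, and 10 rose, beside 3.44%, namely NLW, LLW, ALW, QLW, SLW, TLW, GLW, DLW, NLF and CLL. The median log2 changes of the tested members were -8.47 and -6.51 at the lower and the higher label, beside -8.40 and -6.65 over all entries. Both 72 h comparisons use the same 0 h libraries, so they are not independent of each other. A member could be tested through its 0 h reads alone. At 0 h 363 members averaged 10 counts, against 45 and 43 at 72 h of labels 150 and 200. The counts that fell therefore describe the members and support nothing about the set.

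NLW, which pairs asparagine before the core with W after it, rose furthest. In barcodes 1 to 5 it had 351, 564, 590.3, 38.6 and 1035 CPM at 0 h, and 490.5, 893, 756, 56.5 and 1568 CPM untreated at 24 h. At 72 h it had 3703, 6388, 5953, 853 and 13650 CPM at label 150, and 3654, 6569, 6903, 874.5 and 14440 CPM at label 200. The barcodes started at very different levels, barcode 4 lowest and barcode 5 highest in all of these groups, so the highest barcode at 0 h overlapped the lowest at 72 h. Within a barcode the ratio of 72 h to 0 h was 10.1- to 22.1-fold at label 150 and 10.4- to 22.7-fold at label 200, with barcode 4 the highest both times.

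The log2 change of NLW was 3.57 ± 0.88 (SE) at label 150 by edgeR's quasi-likelihood test (adjusted p = 0.000646, higher in 5 of 5 barcodes). At label 200 it was 3.65 ± 0.85 (edgeR's adjusted p = 7.18e-05, higher in 5 of 5). Untreated at 24 h it was 0.55 (adjusted p = 0.686), or 0.53 with the barcode as a block, where it passed (edgeR's adjusted p = 1.29e-06, higher in 5 of 5). Mean CPM ran 516, 736 and 753 over the untreated times. It ran 989.6, 1924, 4091 and 6109 over 12 to 72 h at label 150, and 782, 2052, 4143 and 6489 at label 200. NLW was the only one of 363 members with a mean of 10 counts at 0 h whose highest time was 72 h, at either label.

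ALW, with alanine before the core, was the most abundant member at 0 h. It had 489, 284, 2842, 183 and 1759 CPM in barcodes 1 to 5 at 0 h. At 72 h it had 1797, 1084, 11720, 725 and 6174 CPM at label 150, and 1123, 707, 9075, 465 and 4141 CPM at label 200. Barcodes 3 and 5 were the high ones in each group, and the groups overlapped across barcodes while every barcode was higher than itself at 0 h. Within a barcode the ratio was 3.51- to 4.12-fold at label 150, a narrow range, and 2.30- to 3.19-fold at label 200.

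ALW rose at label 150 by 1.95 ± 0.90 on the log2 scale (edgeR's adjusted p = 0.0463, higher in 5 of 5 barcodes). The call was lost when any 1 barcode was left out, with adjusted p from 0.0524 to 0.0807. It was also lost with a minimum mean of 50 (edgeR's adjusted p = 0.0602) and with all groups in 1 fit (edgeR's adjusted p = 0.0754). At label 200 its value was 1.48 (edgeR's adjusted p = 0.0844), and with the barcode as a block 1.35, which passed (edgeR's adjusted p = 1.1e-20, higher in 5 of 5). Its mean CPM went from 1112 at 0 h to 4771 at 48 h and 4299 at 72 h at label 150. At label 200 it went to 3969 at 48 h and 3102 at 72 h, so that ALW, unlike NLW, had its highest mean at 48 h.

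LLW, with a second leucine just before the core, had 291, 197, 1037, 181 and 202 CPM in barcodes 1 to 5 at 0 h. At 72 h it had 2021, 1210, 4882, 857 and 1203 CPM at label 150, and 882, 509.8, 2595, 527 and 619 CPM at label 200. Barcode 3 was high in every group and the other 4 lay close together. Within a barcode the ratio was 4.71- to 6.95-fold at label 150 and 2.50- to 3.06-fold at label 200. LLW rose by 2.41 ± 0.78 on the log2 scale at label 150 (edgeR's adjusted p = 0.00646, higher in 5 of 5 barcodes), with an adjusted p of at most 0.0214 when a barcode was left out. At label 200 it was 1.43 (edgeR's adjusted p = 0.0892), and 1.49 with the barcode as a block, which passed, higher in 5 of 5.

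QLW, with glutamine before the core, had 284, 1218, 347, 57.9 and 667 CPM in barcodes 1 to 5 at 0 h and 789.9, 3709, 1119, 227 and 2155 CPM at label 150, 72 h. Every barcode was higher, by 2.78- to 3.92-fold, while the groups overlapped. Its log2 change was 1.64 (edgeR's adjusted p = 0.0730), and 1.68 with the barcode as a block, which passed (edgeR's adjusted p = 1.13e-06). Glutamine and asparagine are both uncharged amides, and QLW stood at 1600 CPM against 6109 for NLW at label 150, 72 h, from nearly equal means of 515 and 516 CPM at 0 h. Aspartate, the acidic counterpart of asparagine, gave DLW a mean of 179 CPM at 0 h, 113 untreated at 24 h, 371 at label 150, 72 h, and 326 at label 200, 72 h.

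With W after the core, serine, threonine and glycine before it gave intermediate mean levels at label 150, 72 h. These lay below NLW, ALW, LLW and QLW and above CLW, so neither polar nor small residues behaved alike. SLW had 418, 87.4, 60.3, 0.839 and 123 CPM in barcodes 1 to 5 at 0 h and 1478, 299.6, 162, 5.95 and 356.5 CPM at label 150, 72 h, with barcode 1 high and barcode 4 near 0 in both groups. TLW had 186, 15.5, 324, 10.9 and 24.0 CPM at 0 h and 488, 39.95, 928, 44.2 and 71.0 CPM at label 150, 72 h. Both were higher in every barcode, SLW by 2.69- to 7.09-fold and TLW by 2.58- to 4.05-fold, while the spread between barcodes was larger than that change. Their log2 changes were 1.74 and 1.49 (edgeR's adjusted p = 0.145 and 0.184), and 1.68 and 1.54 with the barcode as a block, which passed, higher in 5 of 5 each. GLW, with glycine before the core, went from a mean of 221.5 CPM at 0 h to 472 at label 150, 72 h, and 362 at label 200, and was higher within each barcode by 1.37- to 2.42-fold at label 150.

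Acidic residues and proline before the core were also read beside W. At 24 h without the antibiotic DLW was lower in 5 of 5 barcodes, at 0.350- to 0.785-fold its 0 h value, and ELW and PLW in 3 of 5 each, at 0.632- to 1.05-fold and 0.581- to 1.40-fold. At label 150, 72 h, DLW and ELW were above 0 h in every barcode, DLW by 1.11- to 3.84-fold and ELW by 1.19- to 2.06-fold. At label 200, 72 h, DLW was among the members that rose with the barcode as a block and ELW was not. All members with E before the core together had 257 CPM there, against 898.5 at 0 h. PLW, with proline before the core, was below 0 h in every barcode at 72 h of either label, at 0.447- to 0.927-fold and 0.391- to 0.563-fold.

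Members with a basic residue before the core fell also where W stood after it. RLW had 59.2, 74.0, 201, 23.5 and 52.1 CPM at 0 h, and 4.84, 14.4, 78.4, 1.51 and 25.2 CPM untreated at 24 h. It had no read in any barcode at label 150, 72 h, so its summed reads were at least 312-fold lower (edgeR's adjusted p = 3.98e-06, lower in 5 of 5). KLW had a mean of 18.9 CPM at 0 h, 0.786 untreated at 24 h and none at label 150, 72 h, and HLW had 12.9, 9.96 and 0.340 CPM. Both fell at label 150, 72 h, by edgeR's quasi-likelihood test (adjusted p = 3.5e-05 and 0.000335).

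Residue sums at 72 h placed W after the core and asparagine before it at the top. Members with W after the core held 22.3 ± 6.42% of the set's reads at 0 h, 37.6 ± 9.49% untreated at 24 h, 70.3 ± 17.6% at label 150, 72 h, and 72.0 ± 19.2% at label 200, 72 h. In barcodes 1 to 5 their summed CPM was 5587, 6015, 9976, 3384 and 7191 at 0 h, and 12450, 16100, 27430, 4537 and 25470 at label 150, 72 h. At label 200, 72 h, it was 8656, 11860, 21630, 3195 and 21960. Barcode 4 was the lowest each time, and at label 200 it ended just below its 0 h value while the other 4 ended above theirs.

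The W-after sum rose at label 150 by 1.42 ± 0.62 on the log2 scale (edgeR's adjusted p = 0.0354, higher in 5 of 5 barcodes), beside 2.05% of entries in that table that rose. The call was lost without barcode 2, 3 or 5, with adjusted p of up to 0.0896, and with no filter (adjusted p = 0.0532). At label 200 it was 1.07 ± 0.67 (edgeR's adjusted p = 0.125, higher in 4 of 5), and it passed with the barcode as a block. NLW supplied 33.7% of the W-after reads at label 150, 72 h, and 46.5% at label 200. With NLW left out, W after the core still held 62.1 ± 16.5% and 59.8 ± 18.0% of the rest of the set, against 20.9 ± 5.90% at 0 h.

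Asparagine before the core held 4.48 ± 1.83% of the set's reads at 0 h, 4.83% untreated at 24 h, 28.1 ± 12.0% at label 150, 72 h, and 39.0 ± 14.7% at label 200, 72 h. The summed reads rose by 2.44 ± 0.68 on the log2 scale at label 150 (edgeR's adjusted p = 0.00202, higher in 5 of 5 barcodes), beside 2.05% of entries that rose. At label 200 they rose by 2.52 ± 0.74 (edgeR's adjusted p = 0.00125, higher in 5 of 5), beside 1.96%. This is mostly 1 member: NLW made up 42.1% of the asparagine-before reads at 0 h and 89.4% and 90.0% at 72 h. Without NLW, asparagine before the core held 2.75 ± 1.58% of the rest of the set at 0 h, 5.17 ± 4.97% at label 150, 72 h, and 7.99 ± 7.97% at label 200, spreads as large as the values. In the same way ALW made up 97.2% of the alanine-before reads at both labels at 72 h, and without it alanine before the core held 2.99 ± 0.83% of the rest of the set at 0 h and 0.847 ± 0.790% and 0.826 ± 0.664% at 72 h.

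At label 150, 72 h, R, K and V before the core and V, K and C after it had the largest falls of the summed reads. All 39 tested members with a basic residue before the core fell, and so did all 36 with one after it, beside 88.6% of all entries. Members could be tested through their 0 h reads alone, so these 2 counts support nothing about basic flanks. The sum with R before the core had the largest log2 change, -12.94, followed by K (-11.50), V (-10.50), I (-9.33) and H (-8.12). F, P, Y and W before the core also fell, by 4.35, 2.59, 1.97 and 1.504 (edgeR's adjusted p = 0.0182 for W), and the value for W turned to 0.06 under TMM scaling. These last 4 are smaller falls than the median of all entries, -8.40. These 9 sums stand beside 88.4% of entries in that table, and with the barcode as a block 15 fell, beside 92.7%, and A and N rose, beside 4.5%. Under TMM scaling and by DESeq2 the calls of P, Y and W were lost. The before-sums that fell were then 6 in each, beside 7108 and 7034 of 8409 entries. After the core, 16 of 20 sums fell, beside 88.5%. Q, N and F did not pass, and W rose. Under TMM scaling 11 after-sums fell, beside 7107 of 8409 entries, and by DESeq2 14 fell, beside 7040. V after the core had the largest change there, -13.57, followed by K (-11.42), C (-10.20), I (-9.27), R (-9.05), T (-6.93) and H (-5.38). H on either side and T after the core thus fell less than the median entry, and T before the core had -1.46 (edgeR's adjusted p = 0.0855). The 175 members with H, K, R, I or V on either side held 18.7% of the set's reads at 0 h, 6.95% untreated at 24 h, 0.148% at label 150, 72 h, and 0.288% at label 200.

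At label 200, 72 h, 12 before-sums and 18 after-sums fell, beside 91.0% and 91.1% of entries, but the directions there rested on the scaling. With the barcode as a block 18 and 19 fell, beside 94.5% in either table, and N before and W after the core rose, beside 3.45% in either table. TMM factors moved the median of all entries from -6.65 to -2.25. Under them 3 before-sums and 4 after-sums fell, beside 3341 and 3301 of 8461 entries. The values of 12 before-sums and 11 after-sums turned positive, while N before and W after the core stayed positive. Relative to the all-entry median, the before-sums of I, V, H and R were lower or close to it, with -7.12, -6.82, -6.75 and -6.74, and K, with -5.94, was above it. By fitted log2 change, the largest falls among members lower in every barcode were of members with no read at label 200, 72 h, namely FLH, YLS, ILN, ALK and VLC, with 30.8 to 50.3 CPM at 0 h and summed reads at least 122- to 258-fold lower (edgeR's adjusted p = 4.46e-08 for FLH, lower in 5 of 5 barcodes).

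The 5 largest fitted falls at label 150, 72 h, were of members with no read left, so their size is set by the 0 h reads. WLC had a mean of 270.2 CPM at 0 h and no read in any of the 5 libraries at 72 h, so its summed reads were at least 865-fold lower (edgeR's adjusted p = 9.54e-06, lower in 5 of 5 barcodes). WLV, LLP, YLC and TLY followed by fitted log2 change, with at least 526-, 370.1-, 371- and 326-fold. WLC is CLW with its flanks swapped, and 4 of these 5 members hold an aromatic residue.

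Several members with aromatic flanks on both sides led the untreated culture and had lower CPM at 72 h under the antibiotic. YLW was the most abundant member untreated at 24 h, with 2343, 12.0, 4774, 1044 and 2057 CPM in barcodes 1 to 5, against 1373, 7.05, 2402, 589 and 1172 at 0 h. At 72 h it had 423, 2.00, 1451, 297 and 571 CPM at label 150 and 151, 2.15, 696, 109 and 238 CPM at label 200. Barcode 2 was near 0 in every group, and within each barcode the 72 h value was below the 0 h value while the untreated 24 h value was above it. The log2 change at label 150 was -1.01 (edgeR's adjusted p = 0.379) and -1.16 with the barcode as a block, which passed (edgeR's adjusted p = 0.000181, lower in 5 of 5). At label 200 YLW fell by 2.21 on the log2 scale (edgeR's adjusted p = 0.0236, lower in 5 of 5), a value that turned to 2.68 under TMM scaling. The call was lost without barcode 1 (adjusted p = 0.0592). It was also lost with a minimum mean of 50 (edgeR's adjusted p = 0.0663) and with all groups in 1 fit (edgeR's adjusted p = 0.125).

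CLW, with cysteine before the core, varied little between barcodes. It had 521, 672, 691, 1152 and 1157 CPM at 0 h, 38.6, 44.0, 46.7, 87.5 and 90.4 CPM at label 150, 72 h, and 17.8, 14.3, 22.1, 39.1 and 30.8 CPM at label 200. No barcode of either 72 h group reached the lowest 0 h value. CLW fell by 3.77 on the log2 scale at label 150 (edgeR's adjusted p = 6.6e-05) and by 5.08 at label 200, in 5 of 5 barcodes each time. Under TMM scaling the value at label 200 was -0.46 and did not pass (adjusted p = 0.621). In the untreated culture the same member was 1.502- to 1.75-fold higher within each barcode at 24 h, with a mean of 1378 CPM against 839 at 0 h.

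Other pairs of aromatic flanks also led the untreated culture. WLF went from a mean of 1227 CPM untreated at 24 h to a log2 change of -4.31 from 0 h at label 150, 72 h (edgeR's adjusted p = 0.000772, lower in 5 of 5), and WLY and WLW had -1.37 (adjusted p = 0.0995) and -0.44 (adjusted p = 0.746). At label 200 all 3 fell, WLF by 6.08, WLY by 3.02 (edgeR's adjusted p = 0.00122) and WLW by 2.45 (edgeR's adjusted p = 0.0229), each in 5 of 5 barcodes. Under TMM scaling the values of WLY and WLW turned to 1.81 and 2.15, and WLF had -1.23 and did not pass (edgeR's adjusted p = 0.238). The call of WLW was also lost with a minimum mean of 50 (edgeR's adjusted p = 0.0786) and with all groups in 1 fit (edgeR's adjusted p = 0.157). Leaving out a barcode lost it in 1 of 5 cases (edgeR's adjusted p = 0.0661). All members with aromatic residues on both sides together held 14.5% of the set's reads at 0 h, 27.1% untreated at 24 h, 6.35% at label 150, 72 h, and 3.00% at label 200. Members with a polar residue before (N, Q, S or T) and an aromatic one after the core held 10.8%, 14.2%, 42.5 ± 14.1% and 51.7 ± 15.5% in the same order. Much of that rise was 1 member, NLW, which had 4135 of the set's 223394 reads at 0 h. At 72 h NLW alone held 25.9% of the set's reads at label 150 and 36.8% at label 200.

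F after the core marked members that were highest at 24 h of antibiotic. The F-after sum held 20.2% of the set's reads at 0 h. At label 150 it held 31.6% at 24 h and 19.9 ± 13.1% at 72 h, and at label 200 it held 31.2% at 24 h and 19.4 ± 15.2% at 72 h. Within each barcode it was 1.51- to 1.97-fold its 0 h CPM at label 150, 24 h, and 0.403- to 0.870-fold at 72 h. Neither 72 h change of the sum passed by edgeR's test, with log2 changes of -0.58 (adjusted p = 0.336) and -1.10 (adjusted p = 0.122).

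Of the 25 members whose highest mean at label 150 was at 24 h, 12 had F after the core, among them CLF, NLF, SLF, GLF and DLF. CLF had 571, 614, 326, 315 and 1166 CPM at 0 h, means of 1442 and 1530 CPM at 24 h of the lower and the higher label, and 854 and 550.5 CPM at 72 h. Its 24 h value was 1.91- to 2.79-fold its 0 h value in every barcode at either label. NLF had 92.0, 992, 407, 361 and 151 CPM at 0 h and 165, 1920, 640.2, 937 and 232 CPM at label 150, 72 h, higher in each barcode by 1.54- to 2.60-fold. Its log2 change there was 0.96 (edgeR's adjusted p = 0.271) and 0.89 with the barcode as a block, which passed (edgeR's adjusted p = 0.000247). NLF differs from NLW in the residue after the core alone, and the difference between their changes was not tested.

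Members with W after the core had their highest mean at different times. At label 150, ALW, LLW, SLW, TLW, QLW, GLW, PLW, DLW and ELW were highest at 48 h, with WLN the only other member highest then, while WLW, YLW and FLW were highest at 24 h and CLW at 12 h. At label 200, ALW, LLW, SLW, TLW, QLW and DLW were highest at 48 h, with CLL and MLF, while YLW, GLW, PLW and ELW were highest at 24 h and WLW, FLW and CLW at 12 h. The W-after sum was 1.42- to 2.47-fold its 0 h CPM within the barcodes at label 150, 24 h. From 24 to 72 h it was higher in 3 of 5 barcodes at label 150 and in 1 of 5 at label 200. Y after the core held 6.17% of the set's reads at 0 h, 5.81% at label 150, 24 h, 1.28% at label 150, 72 h, and 0.563% at label 200, 72 h.

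W and F differed by the side of the core on which they stood. Leaving out WLW, the summed CPM with W after the core divided by that with W before it was 1.08 ± 0.33 at 0 h and 1.24 ± 0.41 untreated at 24 h. It was 9.75 ± 4.56 at label 150, 72 h, with a range of 2.23 to 14.6, and 14.6 ± 8.03 at label 200, 72 h, with a range of 3.04 to 25.6. The lowest barcode at either label at 72 h thus lay above the highest at 0 h, 1.36, and this is given as a description of the 5 barcodes, with no test. For F the ratio was already 3.48 ± 0.95 at 0 h and reached 57.7 ± 40.3 and 90.7 ± 65.2. For Y it was 0.761 ± 0.290 at 0 h and 0.659 ± 0.450 and 0.465 ± 0.272 at 72 h, within the spread of the barcodes.

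Swapped pairs showed how much this varied. At label 150, 72 h, NLW had 6109 CPM and WLN 248, ALW had 4299 and WLA 112, and LLW had 2034 and WLL 20.2. ALW had started at 1112 CPM against 208 for WLA at 0 h, so part of that gap was present in the pool before growth. CLW had 61.4 CPM and WLC none, TLW had 314 and WLT none, whereas PLW had 148 and WLP 195, and HLW had 0.34 and WLH 26.8. Of 19 pairs, the member with W after the core was higher in all 5 barcodes in 8 at label 150, 72 h, and the member with W before it was higher or equal in all 5 in 6. For F these numbers were 14 and 3 of 19. At 0 h they were 1 and 5 for W, and 8 and 0 for F. By summed reads, the member with W after the core was higher in 12 of 19 pairs at 0 h. It was higher in 12 and 14 at 72 h of labels 150 and 200. For F the numbers by summed reads were 18 at 0 h, and 15 and 17 at 72 h. The number of such pairs thus changed little, unlike the ratio of the sums. Equal covers pairs in which neither member had a read, such as KLW with WLK and KLF with FLK. WLN was the only member with W before the core that rose with the barcode as a block at label 150, 72 h, from a mean of 191 CPM at 0 h to 248.

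CLL stood out among members with no aromatic flank. It had 70.5, 166, 191, 83.9 and 146 CPM in barcodes 1 to 5 at 0 h. At 72 h it had 137, 278, 395, 128 and 209.6 CPM at label 150, and 164, 257, 466, 179 and 304 CPM at label 200. Every barcode was higher than itself at 0 h, by 1.44- to 2.07-fold and 1.55- to 2.45-fold, and untreated at 24 h every barcode was lower, with a mean of 99.9 CPM against 131 at 0 h. Its log2 changes were 0.81 (edgeR's adjusted p = 0.278) and 1.06 (adjusted p = 0.208). With the barcode as a block they were 0.78 and 1.06, and both passed (edgeR's adjusted p = 0.00102 and 4.46e-05, higher in 5 of 5). CLL made up 91.1% and 96.7% of the reads with L after the core at 72 h.

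A fit of additive flank effects left much of the spread between members unexplained. Over the 363 members with at least 10 counts on average at 0 h, the log2 change from 0 h within each barcode, with 1 CPM added, was fitted with 1 term for the residue before and 1 for the residue after. Of the 363, 11 had no read untreated at 24 h, 293 at label 150, 72 h, and 40 at label 200, 72 h, and for these the change is the negative of the 0 h level alone. The percentages and distances at 72 h therefore describe a floored measure and are not compared with the untreated ones. Both terms together took up 50.3% of the variance untreated at 24 h, 33.4% at label 150, 72 h, and 29.0% at label 200, 72 h. The residue after the core took up 29.7%, 25.6% and 21.2% on its own, and the residue before it 20.03%, 8.11% and 7.89%. Members with the largest excess over the fit at label 150, 72 h, were CLL (4.95 ± 0.52 log2 units), MLF (3.64), NLW (3.39), LLW (3.38) and CLF (2.94). CLW, which kept reads in every barcode, had a deficit of -3.20 ± 0.29. At label 200 CLL (5.13 ± 0.66) and NLW (3.93) led again, and CLW had -3.98.

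Cultures of the same age were compared to ask what the antibiotic added to growth. At 24 h, label 150 against untreated, 40 of 117 tested members fell, beside 37.7% of all entries, and none rose, beside 0.0%. No member was higher at an unadjusted p under 0.05, and DESeq2 called 1 higher, beside 22 of 4416 entries. With the barcode as a block 24 rose, beside 19.2%, and 62 fell, beside 58.2%. The median log2 change was -1.27 over the tested members and -1.81 over all tested entries. Of the 24, 11 had F and 7 had W after the core. By fitted log2 change, the largest falls among members lower in every barcode were ALL, LLT, SLI, PLM and YLV, with no read at label 150 and summed reads at least 40.4- to 61.9-fold lower (edgeR's adjusted p = 0.00738 for ALL, lower in 5 of 5 barcodes).

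At label 200, 24 h, 2 of 129 tested members fell, beside 8.07% of all entries, and none rose, beside 0.0%. At an unadjusted p under 0.05, 1 member was higher, and DESeq2 called 1 higher, beside 50 of 4695 entries. With the barcode as a block 21 rose, beside 16.8%, and 26 fell, beside 34.9%. Those that fell were WLV, with 181 CPM untreated and 12.3 at label 200 (log2 change -3.87, edgeR's adjusted p = 0.0480, lower in 5 of 5 barcodes), and ILN, at least 25.1-fold lower (edgeR's adjusted p = 0.0447, lower in 5 of 5). Both calls were lost under TMM scaling and with no filter. They were also lost in every fit that left out 1 barcode (5 of 5 for WLV, 4 of 4 in which ILN was tested), with adjusted p of up to 0.137. Of the 21 that rose with the block, 9 had F and 8 had W after the core. Both 24 h comparisons use the same untreated libraries. A member could be tested through its untreated reads alone, so the counts that fell describe the members and support nothing about the set.

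The 20 members with the same residue on both sides were mostly lost. WLW and FLF were the 2 most abundant of them, with means of 461 and 349 CPM at 0 h, 943 and 586 untreated at 24 h, and 339.5 and 8.61 at label 150, 72 h. YLY went from 113 to 1.44 CPM, LLL from 109 to 0.501 and MLM from 85.2 to 0.333 over the same span. The other 14 that had a read at 0 h had none at label 150, 72 h, and RLR had none in any library. NLN, which shares the asparagine of NLW, had 4.34 CPM at 0 h.

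Peptides with fewer cores held few reads at 72 h. Other design sets carry the same unit 2 times or 1 time at the end of the peptide, with glycines in place of the rest. NLW with 2 cores had 194 CPM at 0 h and 0.271 and 0.470 CPM at 72 h of the lower and the higher label. NLW with 1 core had 6.21 CPM at 0 h and no read in either 72 h group. LLW with 2 cores kept the most, with 108.5 CPM at 0 h and 28.8 and 12.8 CPM at 72 h, while ALW with 2 cores went from 113 to 0.111 and 0.345 CPM. All 400 peptides with 2 leucine cores held 1.32% of the reads at 0 h and 0.0570% and 0.0340% at 72 h, and all 400 with 1 core held 0.415%, 1.82e-05% and 0.00529%. These levels are given as a description, and the difference between copy numbers was not tested.

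With another core residue the same flanks gave other leaders. The units below differ from that of NLW in the core alone.
NFW: GDGNFW
NWW: GDGNWW
NYW: GDGNYW
NFW had 907 and 688 CPM at 72 h of the lower and the higher label, NWW had 474 and 198, and NYW had 3.84 and 1.56, against 6109 and 6489 for NLW. AFW had 1229 and 649 CPM, AWW 7.02 and 1.92. W after the core held 70.3% and 72.0% of the leucine set at 72 h, 42.5% and 34.5% of the phenylalanine set and 18.1% and 9.59% of the tyrosine set. In the tryptophan set the leading residue after the core was L, with 36.2% and 37.7%. Before the core, L led all 3 of those sets, with 25.9% of the phenylalanine set, 36.0% of the tryptophan set and 53.8% of the tyrosine set at label 150. The leucine set had 8.94% there and was led by N.

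Whole sets with 3 cores were compared by the ratio of their summed reads within a library, which does not depend on scaling, in a two-sided exact permutation test over 5 against 5 barcodes whose smallest p is 0.00794, adjusted over 6 ratios by Benjamini-Hochberg. The leucine set was 0.517 ± 0.068 of the tryptophan set at 0 h and 1.33 ± 0.62 at label 200, 72 h, a log2 change of 1.24 (exact p = 0.00794, adjusted p = 0.0238, higher in 5 of 5 barcodes). Against the tyrosine set the log2 change was 5.44 at label 200, 72 h (exact p = 0.00794, adjusted p = 0.0238, higher in 5 of 5), and 0.62 untreated at 24 h (exact p = 0.0159, adjusted p = 0.0317). With barcodes paired, the exact sign-flip test cannot go below 0.0625, so none of these calls held (adjusted p = 0.0938). Leaving out 1 barcode in turn lost each of these calls in 3 of 5 cases. Against the phenylalanine set the change was 1.07 (exact p = 0.0556, adjusted p = 0.0833, higher in 4 of 5) and 0.01 untreated at 24 h (exact p = 0.952, adjusted p = 0.952). Against the tryptophan set untreated at 24 h it was -0.24 (exact p = 0.143, adjusted p = 0.171). At label 150, 72 h, which was not tested, the ratios were 1.02 ± 0.48 to the tryptophan set, 1.94 ± 1.06 to the phenylalanine set and 72.9 ± 41.2 to the tyrosine set, with log2 changes from 0 h of 0.85, 0.84 and 5.57, higher in 5, 4 and 5 of 5 barcodes. With the mean log2 value over members, which weights all 400 equally, in place of the summed reads, the untreated direction against the tyrosine set turned to -0.20 (exact p = 0.0476, adjusted p = 0.0476, higher in 0 of 5). The untreated changes against the tryptophan and phenylalanine sets were then -0.94 and -0.51, and both passed (exact p = 0.00794, adjusted p = 0.00952 each). At label 200, 72 h, the values on that scale were 0.71, 0.17 and 0.54 against the tryptophan, phenylalanine and tyrosine sets, and at label 150, 72 h, 0.59, 0.15 and 0.62. Since NLW alone held 36.8% of the leucine set's reads at label 200, 72 h, these ratios describe a few leading members and not the 400 members evenly.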

How the data were processed

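DNA of the library insert was recovered from yeast and sequenced, per the labels' protocols, and cutadapt and STAR are named, without versions, by the submitters' processing notes. Per the file headers, the deposited table gives unnormalized read counts for every entry in every barcode, all of them whole numbers; how reads were assigned to entries is not given in the sources used here. All 55 columns (11 samples, 5 barcodes each) were used, and no pair of libraries was identical. The 400 members are the entries of 1 design set. Members, lists, tests and the rule for naming were chosen with earlier results of these data known.

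Each of 5 comparisons of groups was fitted across the whole table, using R 4.3.3 and edgeR 4.0.16 (quasi-likelihood, two-sided), with the libraries of those 2 groups alone and total-count scaling. Entries needed a mean of 10 counts in the 10 libraries, p-values were adjusted by Benjamini-Hochberg across all of them, and 0.05 was the threshold. The residue sums were tested in the same fit with 20 sums in place of the 400 members. SE is the log2 change divided by the root of its F value. Ratios, exact permutation tests and the additive fit used SciPy 1.17.1, NumPy 2.4.6 and pandas 2.3.3. The fitting script was tested on simulated data. Alternatives were DESeq2 1.42.0, TMM factors, a stricter minimum of 50 or none, a replicate block by barcode number, 1 fit of all groups, and dropping each barcode in turn. For the set ratios they were the mean log2 value over members and members with 10 counts at 0 h.

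Barcode numbers pair the libraries: deviations from group means had correlations between 0.549 and 0.909 within a number, and the highest between different numbers was -0.112. Deviations within a group cancel out, so positive values within a number push those between numbers to the negative side. The latter are thus no separate sign of pairing. A count of 0 allows up to 3 counts, which set the floors.

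Named members are the 5 largest rises and falls of each comparison past the threshold and alike in all 5 barcodes, the 10 most abundant members untreated at 24 h and at 72 h of either label, the 5 most abundant in other groups, the 20 with the same residue on both sides, and entries with another core and the same flanks. Members given as swapped pairs, as lists of calls with the block, as unread members, by time of highest mean or by distance from the additive fit were chosen after their values were seen, and the set ratios at label 150 were added then.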

Additional observations from a re-analysis of the deposited data

Results flagged for a closer look

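LLW had 1 barcode far above the other 4 in each of the 11 groups, and it was barcode 3 each time. Its gap to the nearest barcode, divided by the range of the group, was 0.872, 0.845 and 0.816 in the untreated groups at 0, 12 and 24 h. It was 0.832, 0.730, 0.730 and 0.711 over 12 to 72 h at label 150 (before rounding 0.7302 at 24 h and 0.7303 at 48 h), and 0.828, 0.771, 0.789 and 0.822 at label 200. The limit used for 5 values is 0.71. Since barcode 3 was already high at 0 h, these are not 11 separate events, and without it the log2 change of LLW at label 150, 72 h, was 2.60.

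The sum of members with W before the core also had barcode 3 apart, at 0 h (0.734), at label 150, 12 h (0.737), and at label 200, 24 h (0.805). In all, 14 of 99 values tested were beyond the limit. Its chance rate of about 1 in 20 holds for independent, normally spread values. The values here share their barcode pattern across groups, so the count is not compared with chance.

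In 6 of 80 cases every barcode moved 1 way from 0 h to 24 h and the other way from 0 h to 72 h at the same label. The log2 of the 24 h over the 72 h value was 1.36 at label 150 and 1.85 at label 200 for F after the core. It was 2.04 and 2.94 for W before the core, and 1.72 and 1.58 at label 200 for C and G before it. In each of these the sum was above its 0 h value at 24 h and below it at 72 h in 5 of 5 barcodes. The difference between the 2 times was not tested.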

How the results depend on the processing

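Calls depended most on the replicate block and, at label 200, 72 h, on scaling; the cause was not tested unless fewer entries or libraries enter the fit. TMM and DESeq2 moved the median log2 change of all entries from -1.87 to -0.61 and -0.75 (untreated, 24 h), from -8.40 to -7.68 and -6.70 (label 150, 72 h) and from -6.65 to -2.25 and -4.25 (label 200, 72 h). With the block, members lower and higher numbered 275 and 27 untreated, and 62 and 24, and 26 and 21, at 24 h of labels 150 and 200. At 72 h 14 and 10 rose. Before- and after-sums lower numbered 12 and 16 untreated and 15 before at label 150, 72 h; sums that rose went from 0 to 1 before and 0 to 3 after the core untreated, from 1 to 2 before it at label 150, 72 h, and from 0 to 1 after it at label 200, 72 h. Untreated at 24 h, TMM, DESeq2 and a minimum mean of 50 gave 31, 94 and 0 members lower, 0, 2 and 0 before-sums and 0, 1 and 0 after-sums, and DESeq2 gave 7 higher. Beside these members, 357 and 1548 of 9000 and 0 of 4037 entries were lower, and 92 were higher by DESeq2. At 72 h TMM and DESeq2 gave 14 and 14 higher at label 150, beside 436 and 426 of 8703 entries. At label 200 they gave 27 and 20 higher, beside 906 and 583 of 8755, and TMM gave 109 lower, beside 3420. The minimum of 50 left 58 lower at label 150 and 64 at label 200, of 88 members tested in each. Entries lower were then 2410 of 3374 and 2630 of 3391. Under TMM and DESeq2, sums lower at label 200, 72 h, were 3 and 6 before and 4 and 11 after. Beside them 3341 and 7012, and 3301 and 7003, of 8461 entries were lower. At 24 h, label 150, no filter gave 102 of 365 members lower, beside 3345 of 10818 entries, and the minimum of 50 gave 0 of 61, beside 450 of 2818. DESeq2 and all groups in 1 fit gave 1 higher each, beside 22 and 63 of 4416. At label 200, TMM, DESeq2, no filter, the minimum and all groups gave 0, 7, 0, 0 and 9 lower. Entries lower were then 268, 695, 419, 131 and 762, of 11335 with no filter, 2846 with the minimum and 4695 otherwise. DESeq2 and all groups gave 1 and 2 higher there, beside 50 and 52 of 4695. Leaving out a barcode gave 66 to 112 members, 2 to 4 before-sums and 2 to 4 after-sums lower untreated, and 0 to 0 members at label 200, 24 h.

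At label 200, 72 h, values turned positive under TMM and DESeq2 for CLF (4.64, 2.55), MLF (4.14, 2.23), SLF (3.58, 1.69), WLW (2.15, 0.31) and YLW (2.68, 0.38), and under TMM for WLY (1.81). So did the before-sums C (3.40, 1.31), D (3.70, 1.70), E (2.87, 0.89), G (3.64, 1.65), L (4.46, 2.25), M (2.45, 0.54), Q (4.56, 2.50), S (3.77, 1.80), T (2.97, 0.73) and W (2.15, 0.10), with P (1.69) and Y (1.73) under TMM alone. The after-sums were F (3.51, 1.57), L (2.95, 0.84), N (3.07, 0.86) and Q (2.57, 0.63), and under TMM A (0.95), D (0.61), E (1.08), G (0.12), P (0.82), S (1.56) and Y (0.68). W before the core at label 150, 72 h, was 0.0553 under TMM.

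For ratios to the tryptophan, phenylalanine and tyrosine sets, the mean log2 value over members gave -0.94, -0.51 and -0.20 untreated, turning the last 2 from positive to negative, and 0.71, 0.17 and 0.54 at label 200, 72 h. With the replicate block, whose smallest adjusted p was 0.0938, 1.24 (tryptophan), 5.44 and 0.62 (tyrosine) no longer passed. Leaving out a barcode gave -0.28 to -0.22, 1.08 to 1.45, 0.81 to 1.36, 0.58 to 0.67 and 5.16 to 5.65 in the order tryptophan untreated and treated, phenylalanine treated, tyrosine untreated and treated. The calls of tryptophan treated and of tyrosine untreated and treated were each lost in 3 of 5 cases. Their adjusted p by the exact permutation test reached 0.0857, 0.114 and 0.0857. Tryptophan untreated and phenylalanine treated passed in 1 of 5 cases each. Depth limits the members with no read, whose falls are bounds.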
